A study of Mus musculus with 4 samples.

Results

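The genes that lie directly beside *Usp21* on mouse chromosome 1 include 3 regulators or carriers of lipid metabolism. *Nr1i3* encodes the nuclear receptor CAR, *Usf1* encodes the upstream stimulatory factor USF1, and *Apoa2* encodes a main apolipoprotein of HDL. Together with *Ppox*, *B4galt3*, *Ufc1*, *Pfdn2*, *Nit1*, *Dedd* and *Tomm40l*, they make 10 genes out of the 35739 listed in the table of transcript abundances. The 10 genes were chosen for their position and not for their expression, and all 10 were found in the table and passed the filter, a mean over the 4 libraries of 1 TPM or more (transcript abundance scaled to an equal total in each library and corrected for transcript length).

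Liver RNA was sequenced from WT mice (replicates 2 and 3) and from *Usp21* KO mice (replicates 1 and 3). All were littermates of 10 to 11 weeks on a normal diet with 12 h of light and 12 h of dark. Each replicate has 1 library and was read as 1 mouse, which the labels do not state. The KO allele lacks exons 3 and 4 of *Usp21* in all tissues. It was made in ES cells of a strain other than C57BL/6 and then bred with C57BL/6 mice, and WT and KO littermates alike came from crosses of C57BL/6 mice with carriers of mixed background. Chromosome 1 sequence of the ES cell strain next to the KO allele would travel with it, so an effect of such sequence on these 10 genes and an effect of the loss of *Usp21* cannot be told apart in this design.

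CAR is known as a receptor of hepatocytes that responds to drugs and endogenous steroids, pairs with the retinoid X receptor and turns on cytochrome P450 and transporter genes. USF1 is a basic helix-loop-helix factor that binds the E-box CACGTG and is known for its part in the response of lipogenic and glycolytic genes to insulin and glucose. ApoA-II is secreted by hepatocytes and is carried on HDL particles beside ApoA-I. Of the other 7 genes, *Ppox* encodes an enzyme of haem synthesis and *B4galt3* a galactosyltransferase of the Golgi. *Ufc1* encodes the E2 enzyme that conjugates the small modifier UFM1, and *Pfdn2* a subunit of the chaperone prefoldin. *Nit1* encodes an amidase that breaks down deaminated glutathione. *Dedd* encodes a protein with a death effector domain, and *Tomm40l* a relative of the mitochondrial import channel TOM40.

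In GENCODE M21 on build GRCm38, the 10 genes span 205.2 kb of chromosome 1, from 171213970 to 171419142, and *Usp21* itself covers 171281945 to 171287991 on the reverse strand. *Ppox* and *Ufc1* lie on the same strand as *Usp21*. The start of *Ppox* is 758 bp beyond the end of *Usp21*, and the end of *Ufc1* is 571 bp before the start of *Usp21*. *B4galt3* lies 5.05 kb away, *Dedd* 41.2 kb, *Nit1* 50.02 kb, *Apoa2* 55.6 kb, *Pfdn2* 57.7 kb, *Tomm40l* 59.4 kb, *Nr1i3* 61.2 kb and *Usf1* 123.3 kb. Several of these genes overlap a partner on the other strand, which bears on how reads can be assigned to them. The bodies of *Nr1i3* (forward) and *Tomm40l* (reverse) overlap over 4691 bp, of which 3304 bp are exonic in both genes. *Dedd* and *Nit1* share 2134 exonic bp and *B4galt3* and *Ppox* share 791 exonic bp in the same way.

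The sequences shown are the stretches upstream of the start of *Nr1i3* and *Apoa2*, the lipid genes nearest to each other, and the gap between the starts of *Nit1* and *Pfdn2*, which point away from each other. They are from RefSeq on build GRCm38.p6 and are written 5′ to 3′ on the forward strand. The 250 bases upstream of *Nr1i3* are chr1:171213720-171213969, with the E-box CACGTG in capitals. The 250 bases upstream of *Apoa2* are chr1:171224804-171225053, with the reverse complement of CCAAT in capitals. The 23 bases between *Nit1* and *Pfdn2* are chr1:171345647-171345669.
Nr1i3 upstream: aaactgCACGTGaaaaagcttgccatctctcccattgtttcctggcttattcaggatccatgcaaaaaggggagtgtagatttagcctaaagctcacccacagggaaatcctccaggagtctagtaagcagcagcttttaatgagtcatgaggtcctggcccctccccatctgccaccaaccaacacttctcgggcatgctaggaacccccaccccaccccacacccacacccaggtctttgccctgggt
Apoa2 upstream: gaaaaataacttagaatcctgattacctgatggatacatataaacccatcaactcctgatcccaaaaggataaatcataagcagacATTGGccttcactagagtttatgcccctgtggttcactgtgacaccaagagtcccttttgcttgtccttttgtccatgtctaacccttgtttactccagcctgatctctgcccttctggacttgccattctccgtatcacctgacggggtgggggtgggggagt
Nit1 to Pfdn2: gtaaccccccggccggatgtgac

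Promoter windows of 300 bases (250 upstream and 50 downstream of a start) were present for 9 of the 10 genes, all except *Tomm40l*, and were searched for exact matches on both strands. The E-box CACGTG, the site that USF1 is known to bind, was found in *Nr1i3* alone of the 9 genes, at position -244 from its start, and in 8.09% of all 27025 genes with a window. The cAMP response element TGACGTCA was found in *B4galt3* alone, at position -8, and in 2.03% of all genes. The CCAAT box was found in *Apoa2*, *Dedd*, *Ppox* and *Ufc1*, and in 41.1% of all genes. The window of *Ppox* held 4 copies, at positions -114, -98, -74 and -45. The D-box TTANGTAA, found in 2.72% of all genes, and the nuclear receptor sites DR1 and DR4 (pairs of AGGTCA in the same direction, 1 and 4 bases apart), found in 0.0481% and 0.0148%, were not among the letters of the 9 genes' windows. The DR1 and DR4 sites share the letters AGGTCA, and a match is a description of the sequence.

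To check the labels, the targeted gene was examined. *Usp21* was at 4.07 and 6.29 TPM in WT and at 1.64 and 2.93 TPM in *Usp21* KO. Both KO values were below both WT values, with a log2 fold change of -0.92 ± 0.33 (SE) and an unadjusted p of 0.0336 in limma (Benjamini-Hochberg adjusted p = 0.464). It was -0.65 (unadjusted p = 0.181) without WT replicate 3 and -0.63 (unadjusted p = 0.153) without KO replicate 1, and without moderation of the variances the unadjusted p was 0.143. The values are per gene and not per exon, so any RNA from exons that the KO allele retains would be counted too. Whether such RNA was present was not tested. The libraries held TPM above 0 for 12876 to 13620 genes. The TPM values carry no read depth, so the precision of a low value is unknown. The limma p-values here rest on the spread between the 4 libraries. Unless moderation is left out, the variance of each gene is drawn toward that of genes of similar level. With 2 libraries against 2, the smallest p that an exact permutation test of a single gene can give is 0.333, so a model with variances shared across genes was used.

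The 10 genes were expressed over a wide range in liver. *Apoa2* was the most abundant, with 14000 to 18855 TPM, which was 1.40% to 1.89% of all TPM and rank 9 to 15 among all genes in the 4 libraries. *Ufc1* (58.3 to 64.6 TPM), *Pfdn2* (43.3 to 67.6 TPM), *Nit1* (41.3 to 58.1 TPM) and *Nr1i3* (26.5 to 42.1 TPM) followed, and each of these overlapped its neighbour in the order. *Usf1* (8.88 to 16.4 TPM) and *Dedd* (8.81 to 11.2 TPM) overlapped each other and were below *Nr1i3* in every library. *Ppox*, *Tomm40l* and *B4galt3* were the lowest, between 1.65 and 5.58 TPM, and did not differ in level beyond their spread. The ranges were separate between *Apoa2* and *Ufc1*, between *Nr1i3* and *Usf1*, and between *Dedd* and *Ppox*.

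**Figure D1:**
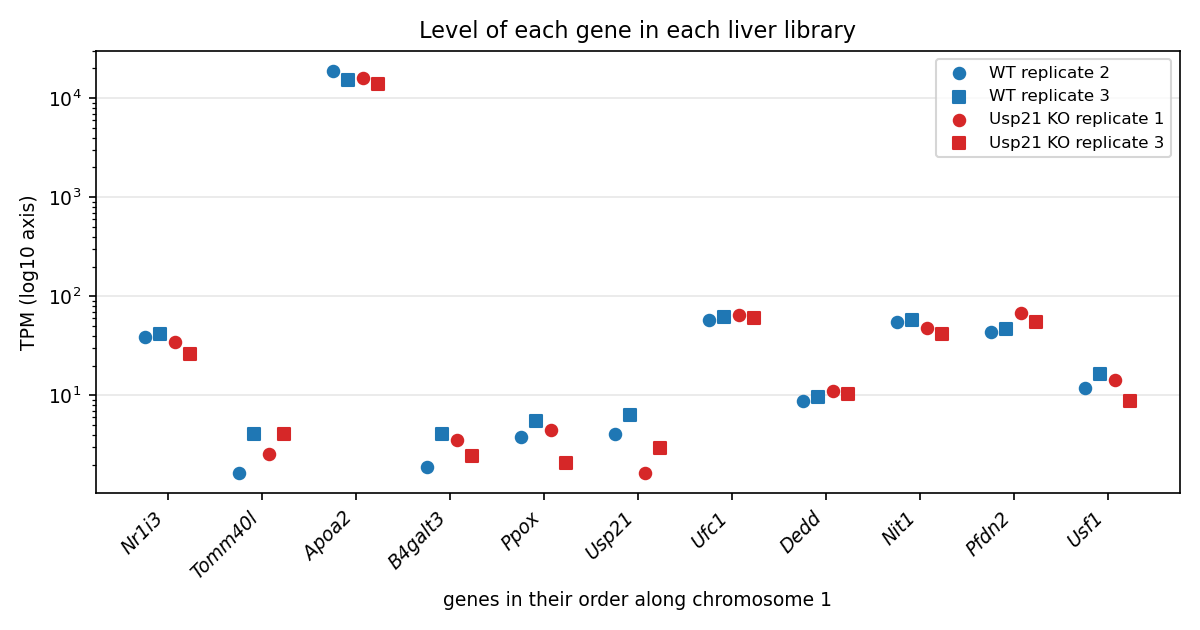
Level of each of the 10 genes and of *Usp21* in each liver library, in TPM on a log10 axis, with the genes in their order along chromosome 1. Blue marks are WT replicates 2 and 3 and red marks are *Usp21* KO replicates 1 and 3. *Apoa2* lies at 14000 TPM or more in every library, and *Tomm40l*, *B4galt3* and *Ppox* lie at 5.58 TPM or less.

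To ask whether the genes beside *Usp21* differed between genotypes, the 4 libraries were compared on log2(TPM + 1) with limma over 9581 genes. None of the 10 genes passed a Benjamini-Hochberg adjusted p of 0.05, a threshold that 8 genes in all (0.0835%) passed, and 0 of the 10 passed an unadjusted p of 0.05, which 10.5% of all tested genes passed (8.45% higher and 2.04% lower in KO). The adjusted p-values of the 10 genes ran from 0.482 to 0.965. The 2 KO values of a gene lay on 1 side of both WT values in 4 of the 10 genes, compared with 45.3% of all tested genes. *Pfdn2* and *Dedd* had both KO values above (34.4% of all genes), and *Nr1i3* and *Nit1* had both KO values below (10.9% of all genes). The share among the 10 genes was thus near that of the whole table. On the scale of log2(TPM + 1), no gene among the 10 differed by 2-fold or more, which 3.68% of all genes did. The largest absolute log2 fold change was 0.44, in *Ppox*.

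Over all tested genes, the log2 fold change had a median of 0.15, so the level from which a difference is counted matters here. It was 0.04 when the libraries were scaled to an equal upper quartile and -0.05 when they were scaled to an equal median. The median of the 10 genes was -0.06, or -0.21 relative to all genes. Of the 10 genes, 5 were above 0 and 5 below 0, whereas 66.7% of all tested genes were above 0. Relative to the median of all genes, 3 were above and 7 below. Under both other scalings, 3 of the 10 genes were also above the median of all genes and 7 below it.

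**Figure D2:**
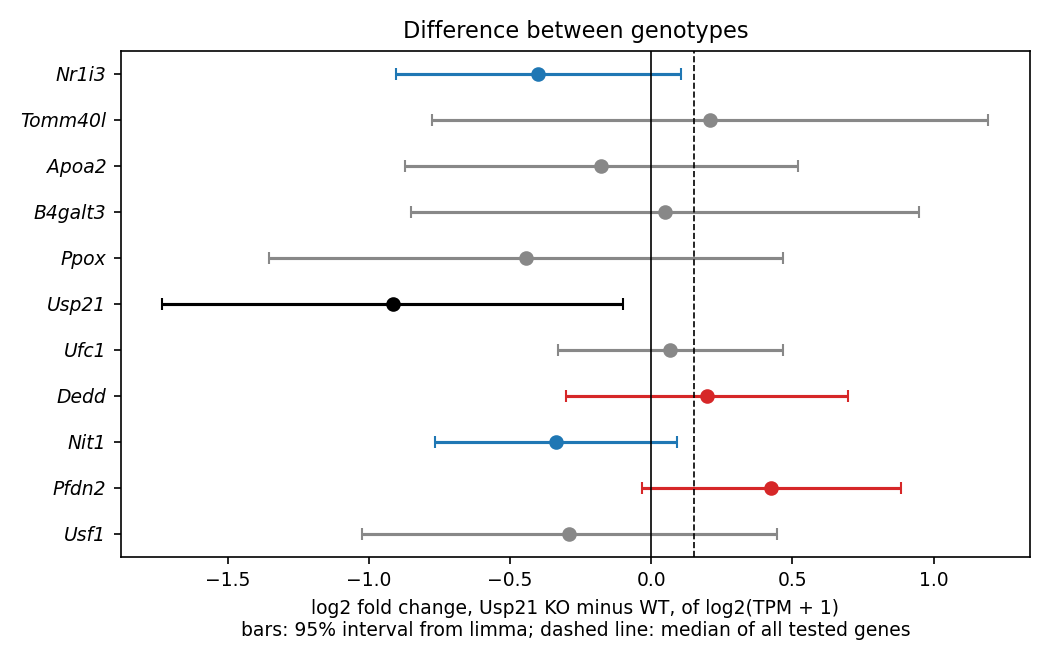
Difference between *Usp21* KO and WT for each of the 10 genes and *Usp21*, as log2 fold change of TPM + 1 with the 95% interval from limma. Blue and red mark genes whose KO values are both below or both above the WT values, gray marks genes whose groups overlap, black is *Usp21*, and the dashed line is the median of all tested genes at 0.15. The interval of every gene except *Usp21* includes 0.

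Among the 3 lipid regulators, *Nr1i3* was at 38.9 and 42.1 TPM in WT and at 34.9 and 26.5 TPM in *Usp21* KO. The groups did not overlap, and KO replicate 3 was the lowest library. The means were 40.5 ± 2.25 TPM (SD, n = 2) in WT and 30.7 ± 5.96 TPM (SD, n = 2) in *Usp21* KO, which is 0.758-fold on the scale of TPM. The log2 fold change was -0.40 ± 0.20 (SE), or -0.55 relative to the median of all genes, with an unadjusted p of 0.0992 and an adjusted p of 0.516. It remained between -0.59 and -0.21 when each library was left out in turn. With the libraries at an equal median the log2 fold change of *Nr1i3* was -0.63, with an unadjusted p of 0.0134 and an adjusted p of 0.475 in limma, and at an equal upper quartile it was -0.53 with an unadjusted p of 0.0284.

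*Apoa2* was at 18855 and 15324 TPM in WT and at 16157 and 14000 TPM in *Usp21* KO. The groups overlapped, since KO replicate 1 lay between the WT libraries. For *Apoa2*, the log2 fold change was -0.18 ± 0.28 (SE) with a 95% interval of -0.87 to 0.52, so that a level in KO between 0.547-fold and 1.43-fold of WT was within the error. The adjusted p was 0.824. *Apoa2* has no exonic overlap with a gene on the other strand, and 0 of its 592 stretches of 31 bases occur in a transcript of another gene.

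*Usf1* was at 12.01 and 16.4 TPM in WT and at 14.4 and 8.88 TPM in *Usp21* KO. The groups overlapped, with KO replicate 1 between the WT libraries and KO replicate 3 below them. This gave a log2 fold change of -0.29 ± 0.29 (SE) with an adjusted p of 0.719, and it was 0.03 without KO replicate 3. The level of *Usf1* should be read with some care because 23.5% of its stretches of 31 bases occur in another transcript on the same strand, 18.3% in the pseudogene *Gm12345*, which was at 0 TPM, and 4.82% in the nearby gene *Tstd1*. Of the other members of the USF family, *Usf2* was at 42.2 and 32.2 TPM in WT and at 38.4 and 35.7 TPM in KO. *Usf3* was between 1.67 and 2.49 TPM, and neither passed an unadjusted p of 0.05.

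Of the 7 other genes, *Pfdn2* had the smallest p-value. It was at 43.3 and 46.9 TPM in WT and at 67.6 and 54.8 TPM in *Usp21* KO, and each KO library exceeded each WT library. The means were 45.1 ± 2.51 TPM and 61.2 ± 9.02 TPM (SD, n = 2 each). A log2 fold change of 0.43 ± 0.18 (SE) had an unadjusted p of 0.0638 and an adjusted p of 0.482, and without KO replicate 3 it was 0.57 with an unadjusted p of 0.0407 (adjusted p = 0.402). Without KO replicate 1 it was 0.28 (unadjusted p = 0.218), at an equal upper quartile 0.29 (unadjusted p = 0.124) and at an equal median 0.20 (unadjusted p = 0.260). *Nit1*, whose start lies 23 bp from that of *Pfdn2*, was at 54.6 and 58.1 TPM in WT and at 47.8 and 41.3 TPM in *Usp21* KO. The groups of *Nit1* did not overlap and stood in the other order, with both KO libraries lower. Its log2 fold change was -0.34 ± 0.17 (SE) with an adjusted p of 0.516, and at an equal median it was -0.56 with an unadjusted p of 0.0125 (adjusted p = 0.475). At an equal upper quartile it was -0.47 with an unadjusted p of 0.0258.

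*Dedd*, which overlaps *Nit1* on the other strand, was at 8.81 and 9.65 TPM in WT and at 11.2 and 10.3 TPM in *Usp21* KO. Its KO values were both higher, by a small amount. The log2 fold change was 0.20 ± 0.20 (SE) with an adjusted p of 0.719, it was 0.05 relative to the median of all genes, and it was -0.01 when the libraries were set to an equal median.

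*Ufc1*, the gene nearest to *Usp21*, varied least. It was at 58.3 and 61.6 TPM in WT and at 64.6 and 61.1 TPM in *Usp21* KO. The groups overlapped and the means were 59.9 ± 2.34 and 62.9 ± 2.47 TPM (SD, n = 2 each). This amounts to a log2 fold change of 0.07 ± 0.16 (SE), with a 95% interval of -0.33 to 0.47 and an adjusted p of 0.886, which was -0.06 and -0.16 under the upper quartile and equal median scalings.

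*Ppox*, on the other side of *Usp21*, was at 3.79 and 5.58 TPM in WT and at 4.53 and 2.08 TPM in *Usp21* KO. Its groups overlapped, and the lowest value was that of KO replicate 3. The log2 fold change of -0.44 ± 0.37 (SE) had an adjusted p of 0.658 and ran from -0.87 to -0.02 when each library was left out in turn. *B4galt3* was at 1.88 and 4.12 TPM in WT and at 3.56 and 2.46 TPM in *Usp21* KO, and the WT values enclosed the KO values. The difference was 0.05 ± 0.36 (SE) on the log2 scale, and -0.05 or -0.12 under the other scalings, with an adjusted p of 0.965. *Tomm40l* was at 1.65 and 4.09 TPM in WT and at 2.56 and 4.05 TPM in *Usp21* KO, again with the KO values between the WT values. Its log2 fold change was 0.21 ± 0.40 (SE) with an adjusted p of 0.857, and it was -0.26 without WT replicate 2.

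The genes whose pattern over the 4 libraries was most like that of the lipid regulators were found by the distance between log2(TPM + 1) values centred on each gene, among the 4024 genes that averaged 10 TPM or more. Nearest to *Nr1i3* were *Zfyve21* (distance 0.02), *Agmat* (0.05) and *Sat2* (0.07). *Agmat* was at 96.9 and 107.1 TPM in WT and at 86.3 and 68.6 TPM in KO. Nearest to *Usf1* were *Nmi* (0.06), *Sc5d* (0.08), an enzyme of cholesterol synthesis, and *Slc3a1* (0.10). *Sc5d* was at 123.4 and 161.9 TPM in WT and at 153.5 and 94.8 TPM in KO. Nearest to *Apoa2* were *Marchf2*, *Agt*, which encodes angiotensinogen, and *Npepl1*, each at a distance of 0.05. With only 4 values per gene and 4024 genes searched, small distances can arise between unrelated genes. No relation between these genes was tested.

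The overlap between genes on opposite strands was then set beside a second table of the same libraries, which holds TMM-normalized CPM (read counts scaled to library size) and from which 102898 to 148164 reads per library were recovered. A count of 0 in it allows up to 3 reads, or 20.0 to 27.7 CPM, for counting error only. *Tomm40l* was at 1620 and 1752 CPM in WT and at 1663 and 1273 CPM in KO, although its TPM was at most 4.09. *Nr1i3*, whose TPM was above that of *Tomm40l* in every library, was at 84.4 and 183.5 CPM in WT and at 126.9 and 175.2 CPM in KO. The order of the 2 overlapping genes was therefore turned between the tables. The log2 fold change of *Nr1i3* was 0.26 in the CPM table, where its groups overlapped.

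*Nit1* was at 660.2 and 605.5 CPM in WT and at 607.8 and 599.5 CPM in KO. *Dedd* was at 345.4 and 477.1 CPM in WT and at 327.3 and 212.1 CPM in KO, so that its KO values were lower here, with a log2 fold change of -0.62, and higher in TPM. *Apoa2*, at over 14000 TPM, had 4 and 6 reads in WT and 1 and 2 reads in KO. From these reads the ratio of KO to WT was 0.278, with an exact 95% interval of 0.0492 to 1.08 for counting error only. The log2 fold change in the CPM table was -1.79 (unadjusted p = 0.0645 in limma). The reads are very few for a gene of this TPM, so these values describe the reads and cannot be read as the level of *Apoa2*. *B4galt3* had 1 read, in KO replicate 1, which allows no fold change, and *Ppox*, *Ufc1*, *Pfdn2*, *Usf1* and *Usp21* were listed at 0 in all 4 libraries. The gene *Klhdc9*, which shares 535 exonic bp with *Pfdn2* on the other strand, was at 0 TPM in every library and at 414.5 and 284.4 CPM in WT and 146.9 and 258.3 CPM in KO.

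Over the whole table, genes that reached 100 TPM in all 4 libraries were at 0 CPM throughout in 61 of 159 cases (38.4%) where their exons overlapped a gene on the other strand, and in 367 of 523 cases (70.2%) where they did not. Among 513 genes that overlap a single gene on the other strand by at least 200 exonic bases, Spearman's rho between CPM and the gene's own TPM times its exonic length was 0.03. It was 0.37 between CPM and the TPM of the opposite gene times the length of the overlap. These correlations are across genes, which share libraries and are not independent replicates. In the transcript sequences, 68.1% of the stretches of 31 bases of *Nr1i3*, 59.6% of *Tomm40l*, 40.6% of *Nit1*, 35.2% of *Dedd* and 26.4% of *Pfdn2* occur in a transcript on the other strand. The strand setting of neither the counting nor the abundance estimate is given in the sources used here. Without strand, reads from the shared stretches cannot be assigned to either gene of a pair. The values of both members of each pair are uncertain to that extent.

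**Figure D3:**
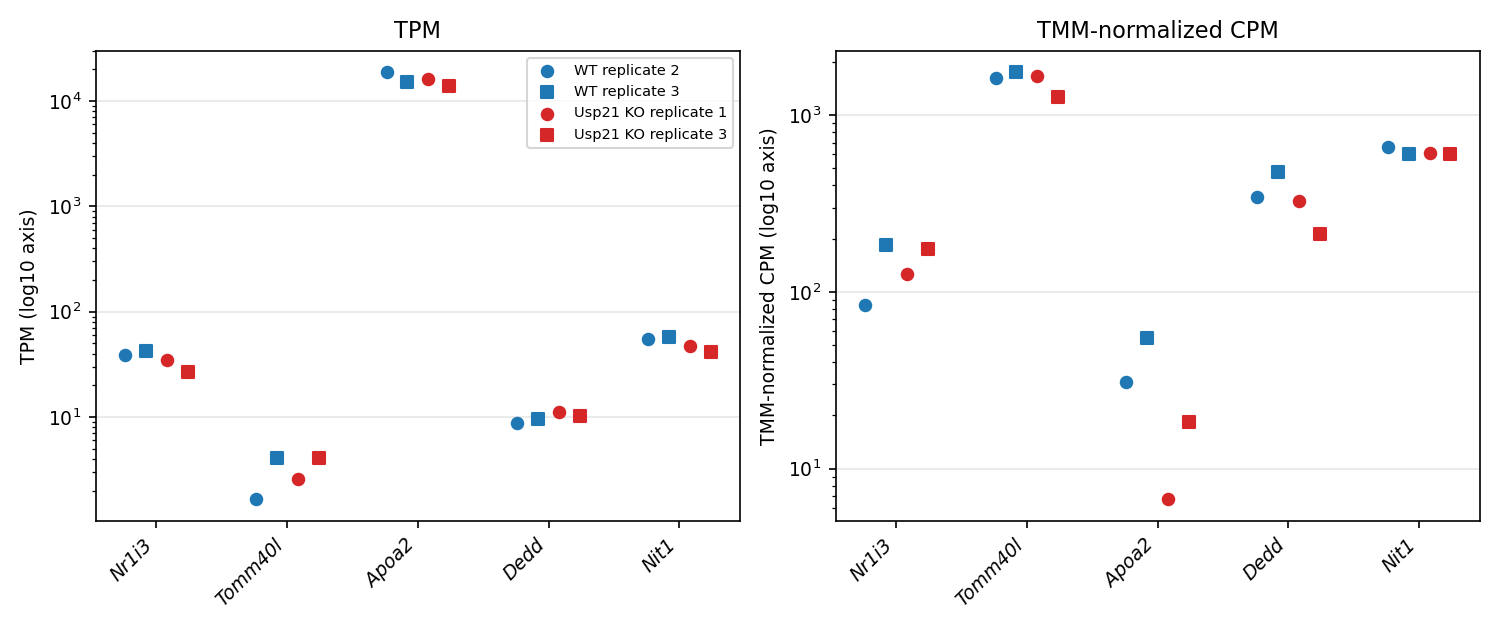
TPM (left) and TMM-normalized CPM (right) of the 5 genes that had reads in every library of the CPM table, each on a log10 axis, with marks as in the plot of TPM by library. *Tomm40l* is the lowest of the 5 genes in TPM (1.65 to 4.09) and the highest in CPM (1273 to 1752), and *Apoa2* is the highest in TPM and the lowest in CPM.

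Other genes of the same region were examined to see whether the 10 genes differed from their surroundings. Within 250 kb of *Usp21*, 37 genes other than *Usp21* are annotated, 28 were in the TPM table and 19 passed the filter, of which 9 were not among the 10. Of these 19 genes, 36.8% had groups that did not overlap, and the share was 33.3% within 100 kb and 37.5% within 500 kb, compared with 45.3% of all genes. *Cfap126*, a gene of motile cilia, was at 3.15 and 4.45 TPM in WT and at 0.400 and 1.39 TPM in KO. It had the largest difference of the 19, a log2 fold change of -1.38 with an unadjusted p of 0.00949 (adjusted p = 0.464), and without WT replicate 3 the unadjusted p was 0.0599. *F11r*, which encodes the junctional adhesion molecule JAM-A, was at 22.9 and 25.5 TPM in WT and at 64.0 and 30.8 TPM in KO, and its log2 fold change of 0.86 was 0.34 without KO replicate 1. *Sdhc*, a subunit of succinate dehydrogenase, was at 172.6 and 168.6 TPM in WT and at 127.8 and 137.0 TPM in KO, a log2 fold change of -0.36 (unadjusted p = 0.0621). The other genes of this region had overlapping groups, with *Tstd1* (log2 fold change 0.82, unadjusted p = 0.181) and *Pcp4l1* (0.68, unadjusted p = 0.208) among them.

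**Figure D4:**
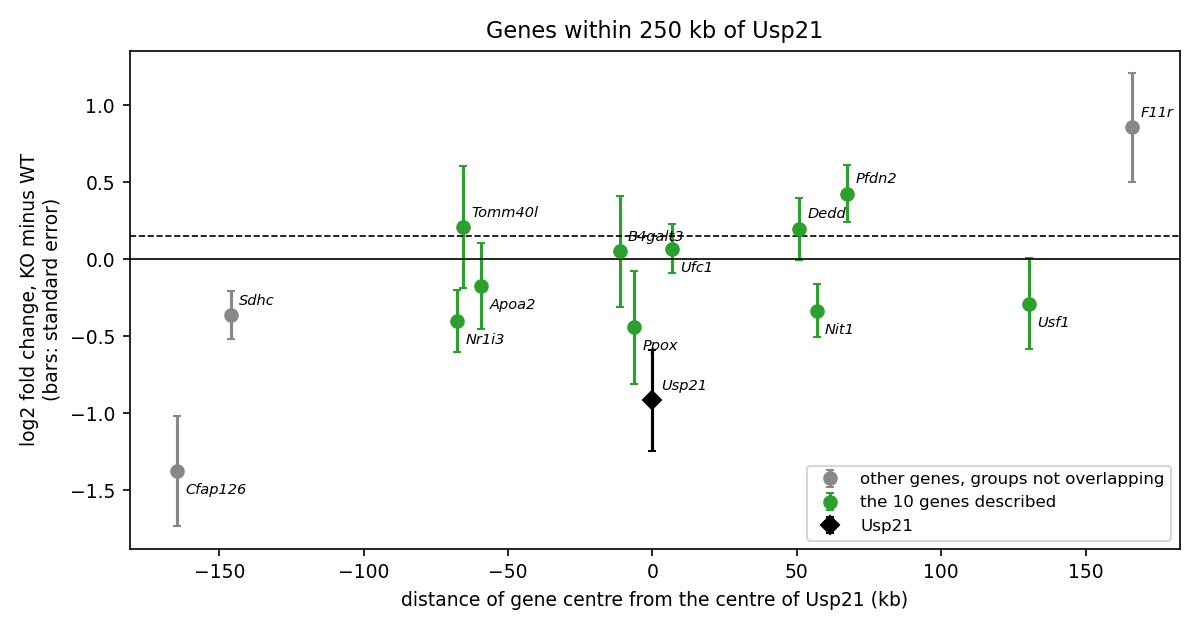
Log2 fold change (*Usp21* KO minus WT, with SE) of the 10 genes and of the 3 other genes within 250 kb of *Usp21* whose groups did not overlap, by the distance of the gene's centre from the centre of *Usp21* in kb. Green marks are the 10 genes, gray marks the 3 other genes and the black diamond *Usp21*, and the dashed line is the median of all tested genes. *Cfap126*, at -1.38, lies below *Usp21* itself, and the 10 genes lie between -0.44 and 0.43.

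To place the receptor encoded by *Nr1i3* among genes it is known to regulate, a list of 23 CAR target genes was read, of which 19 were tested. Of these, 3 were higher and 3 were lower at an unadjusted p of 0.05, compared with 8.45% higher and 2.04% lower of all genes, and the median log2 fold change was -0.13, compared with 0.15 over all genes. The lower genes were *Cyp2a5*, *Por* and *Aldh1a1*. *Cyp2a5*, a P450 that metabolizes coumarin and nicotine, was at 494.6 and 615.8 TPM in WT and at 222.4 and 177.4 TPM in KO, and its log2 fold change was -1.47 ± 0.21 (SE; adjusted p = 0.188 in limma). *Por*, the reductase that supplies electrons to all microsomal P450 enzymes, was at 175.2 and 167.7 TPM in WT and at 81.8 and 81.4 TPM in KO, with a log2 fold change of -1.06 ± 0.15 (SE; adjusted p = 0.203). *Aldh1a1*, a retinal dehydrogenase, had a log2 fold change of -0.68.

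The higher genes were *Cyp2c55* (log2 fold change 1.20), the bile canalicular transporter *Abcc2* (0.53) and the carboxylesterase *Ces2a* (0.49). *Cyp2b10*, the target most often used to read CAR activity, was at 2.20 and 1.46 TPM in WT and at 4.44 and 2.41 TPM in KO, with a log2 fold change of 0.62 and an unadjusted p of 0.117. The members of the list thus stood on both sides. When each library was left out in turn, 1 to 5 genes of the list were higher and 2 to 5 were lower at an unadjusted p of 0.05, and the median stayed between -0.25 and -0.03.

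Of 11 partners and coregulators of CAR, 4 were higher and 1 was lower at an unadjusted p of 0.05 (8.45% and 2.04% of all genes), with a median of 0.15, the same as over all genes. The higher genes numbered 1 without WT replicate 2, 2 without WT replicate 3 and 2 without KO replicate 1. *Hnf4a*, a nuclear receptor that maintains hepatocyte genes, was at 111.6 and 105.3 TPM in WT and at 171.3 and 155.3 TPM in KO (log2 fold change 0.59). *Hsp90ab1* (0.70) and *Dnajc7* (0.70), which encode chaperones known to hold CAR in the cytoplasm, and the corepressor *Ncor1* (0.75) were the others. *Rxrg*, a retinoid X receptor with little expression in liver, was at 3.53 and 3.29 TPM in WT and at 1.43 and 0.914 TPM in KO, with a log2 fold change of -1.03. *Rxra*, the main retinoid X receptor of hepatocytes, was between 56.3 and 77.3 TPM with overlapping groups. *Ppargc1a*, a coactivator, was at 0.681 and 0.482 TPM in WT and at 2.43 and 1.19 TPM in KO, with an unadjusted p of 0.0534.

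The PAR bZIP factors *Dbp*, *Tef* and *Hlf*, which are known to act on the expression of *Nr1i3* and *Por* in liver, were read beside *Nr1i3*. *Dbp* was at 56.8 and 41.3 TPM in WT and at 4.73 and 4.97 TPM in KO, and it fell with a log2 fold change of -3.08 ± 0.23 (SE; adjusted p = 0.0193 in limma). When any library was left out, 0 genes of the table passed an adjusted p of 0.05 in limma, *Dbp* included, and 542 to 1188 genes passed an unadjusted p of 0.05. *Tef* was at 17.0 and 21.3 TPM in WT and at 8.23 and 8.997 TPM in KO (log2 fold change -1.06), and *Hlf* at 7.43 and 7.02 TPM in WT and at 4.32 and 4.37 TPM in KO (-0.62). In the wider list of PAR bZIP and clock genes, 3 of 13 tested genes were higher and 6 were lower at an unadjusted p of 0.05, compared with 8.45% and 2.04% of all genes. The lower genes numbered 3 without WT replicate 2 and 4 when any 1 of the other libraries was left out. The difference in *Nr1i3*, at -0.40, was smaller in size than those of *Dbp*, *Tef* and *Hlf*, and no relation between them was tested. The time of day at which each liver was taken is not given in the sources used here.

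Among 15 genes known as targets of USF1, 2 were higher and 2 were lower at an unadjusted p of 0.05 (8.45% and 2.04% of all genes), and the median was 0.01. *Srebf1*, the factor that drives fatty acid synthesis, was at 58.1 and 64.3 TPM in WT and at 27.3 and 20.7 TPM in KO, with a log2 fold change of -1.32 ± 0.20 (SE; adjusted p = 0.242 in limma). *Pklr*, the liver pyruvate kinase, had a log2 fold change of -0.74. *Lpl*, the lipoprotein lipase, was at 4.73 and 4.60 TPM in WT and at 30.9 and 9.93 TPM in KO (1.72), and *Cpt1a*, the entry enzyme of mitochondrial fatty acid oxidation, had a log2 fold change of 0.54. *Fasn*, the fatty acid synthase, was at 35.2 and 154.8 TPM in WT and at 47.8 and 23.4 TPM in KO, so that WT replicate 3 alone was high. *Thrsp*, at 75.0 and 611.4 TPM in WT and at 51.9 and 36.7 TPM in KO, showed the same library far above the others. Without WT replicate 3, 0 genes of the list were higher and 1 was lower, without WT replicate 2 these counts were 1 and 4, without KO replicate 1 they were 2 and 1, and the median ran from -0.21 to 0.17 over the libraries left out.

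Around *Apoa2*, 16 of 17 genes of HDL structure and metabolism were tested, and 1 passed an unadjusted p of 0.05, as did 10.5% of all genes. This was *Apom*, an HDL apolipoprotein that carries sphingosine 1-phosphate, at 329.9 and 282.6 TPM in WT and at 170.6 and 212.6 TPM in KO (log2 fold change -0.68, adjusted p = 0.464 in limma). *Apoa1*, the partner of *Apoa2* on HDL, was at 12609 and 10990 TPM in WT and at 12866 and 7707 TPM in KO, with overlapping groups as for *Apoa2*. *Scarb1*, the hepatic HDL receptor, was at 87.9 and 51.3 TPM in WT and at 108.1 and 99.4 TPM in KO (log2 fold change 0.62, unadjusted p = 0.0711). *Abca1*, which loads cholesterol onto ApoA-I, was at 5.98 and 6.94 TPM in WT and at 10.8 and 8.76 TPM in KO (0.53, unadjusted p = 0.0607). The median of the list was -0.16.

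In the pathways of the 7 other genes, no gene passed an unadjusted p of 0.05 in limma, which 10.5% of all tested genes passed. Of 8 genes of haem synthesis, 6 were below 0 and the median was -0.21, whereas 66.7% of all tested genes were above 0. *Alad*, which acts early in this pathway, was at 124.5 and 102.9 TPM in WT and at 82.4 and 84.5 TPM in KO (log2 fold change -0.43, unadjusted p = 0.0501). Of 6 subunits of prefoldin, 5 were above 0 (66.7% of all tested genes) with a median of 0.29. *Pfdn4* (0.46) and *Pfdn2* (0.43) had the largest differences. Without 1 library the prefoldin median ran from 0.06 to 0.48.

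Of 8 genes of the UFM1 pathway, 6 were above 0 (66.7% of all tested genes) and the median was 0.04. *Cdk5rap3*, an adaptor of the UFM1 ligase, had the largest difference (-0.46). The TOM complex (8 genes) had a median of 0.11, led by *Tomm22* (0.28). In 2 of its genes, *Tomm22* among them, the groups did not overlap, compared with 45.3% of all tested genes. The 6 genes with death effector domains or related to them had a median of 0.25, led by *Casp8* (0.42), the initiator caspase of death receptors. The 6 nitrilase-like genes had a median of -0.10, led by *Vnn3* (-0.48). The 4 tested galactosyltransferases of the family of *B4galt3* had a median of 0.12, led by *B4galt5* (0.28). These medians lie on both sides of the 0.15 of all tested genes.

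The labelled tissue was checked against markers. The summed TPM of 10 hepatocyte markers, of which 9 were in the table, was 59699 to 84522 over the 4 libraries. The sum of 6 cholangiocyte markers was 14.6 to 15.9 TPM in WT and 24.5 to 37.99 TPM in KO, and that of 8 stellate cell markers was 86.2 to 120.4 TPM in WT and 118.0 to 178.0 TPM in KO. For 10 Kupffer cell and macrophage markers it was 220.3 to 258.1 TPM in WT and 117.6 to 298.6 TPM in KO, for 8 sinusoidal endothelial markers 53.6 to 68.4 TPM and 61.8 to 79.9 TPM, for 8 lymphocyte markers 2.77 to 3.83 TPM over all libraries, and for 6 erythroid markers 719.0 to 911.0 TPM. The cholangiocyte sum was the 1 non-overlapping sum, and none of the markers of these other cell types was at 0 in every library. The cholangiocyte sum rested mainly on *Spp1*, and its part in the differences of the 10 genes was not tested. In bulk liver RNA, fewer cells of a type and less RNA per cell cannot be told apart. The reference gene *Gapdh* had a log2 fold change of -0.17.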

How the data were processed

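RNA-seq (Illumina MiSeq) was carried out on liver RNA of 2 WT and 2 *Usp21* KO mice, and samples were grouped by their labels. The authors estimated abundances with salmon on mm10 and deposited them as TPM for 35739 genes, and as log2 values, which equal log2(TPM + 1). The authors also counted reads with HTSeq and deposited TMM-normalized CPM, a scaled count signal, for 55335 genes. All CPM values (100%) were whole multiples of 1 read within a tolerance of 0.02. Tool versions and strand settings are not given in the sources used here, and the number of sample columns not used was 0.

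Genes that averaged 1 TPM or more were tested on log2(TPM + 1) with limma 3.58.1 in R 4.3.3 (lmFit, eBayes with trend), two-sided, with Benjamini-Hochberg adjustment over 9581 genes. A fold change is on this scale and understates the change of low genes. The prior degrees of freedom were 3.62. The recovered reads were also tested with edgeR 4.0.16 (12 genes called at an adjusted p of 0.05) and DESeq2 1.42.0 (1 gene). Other pseudocounts, filters, scalings and omitted libraries were tried. The scripts were tested on simulated data. Coordinates are from GENCODE M21 (GRCm38), in which 35126 of the TPM gene identifiers were found.

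The 10 genes and the gene lists, which were written from general knowledge, were chosen with earlier results of these data known. All 10 genes, *Usp21*, tested genes within 250 kb, the genes of each list with the smallest unadjusted p or the largest difference, *Dbp*, *Tef*, *Hlf*, *Ppargc1a*, *Gapdh* and the 3 genes nearest in pattern to each lipid regulator were named. *Fasn*, *Apoa1*, *Cyp2b10*, *Rxra*, *Usf2*, *Usf3*, *Klhdc9*, *Gm12345*, *Cyp2b9*, *Cyp2b13* and the genes of chromosome Y were named after their values were seen. A few genes that this rule would name are not reported here.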

Additional observations from a re-analysis of the deposited data

Results flagged for a closer look

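*Klhdc9*, which lies within 250 kb of *Usp21* and overlaps *Pfdn2* on the other strand, carried a signal in the CPM table, which served here only as an alternative. It was at 0 TPM in every library and at 146.9 CPM or more in every library of the CPM table, above the 27.7 CPM that 3 reads amount to in the library with the highest such limit. *Pfdn2* was at 0 CPM in the same libraries. The cause was not tested.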

How the results depend on the processing

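The count of the 10 genes past an unadjusted p of 0.05 (0) was 2 with the libraries at an equal upper quartile (9.17% of all genes) and 2 at an equal median (9.82%), and 0 to 1 when each library was left out in turn (5.66% to 12.4%). The count with groups that did not overlap was 4, with 2 higher and 2 lower in KO. At an equal median it was 7, with 1 higher and 6 lower (44.3% of all genes in either direction). At an equal upper quartile it was 6, with 2 higher and 4 lower (43.1%). It was 2 in the TMM-normalized CPM table, 2 with edgeR and 2 with DESeq2 on the recovered reads (21.5%). With 1 library left out it was 5 to 8 (70.2% to 76.9%). The median log2 fold change of the 10 genes (-0.06) was -0.28 at an equal median and ran from -0.31 to 0.014 with 1 library left out, above 0 without WT replicate 3 (0.014) and without KO replicate 3 (0.003). At an equal upper quartile *B4galt3* was -0.051 and *Ufc1* -0.065, and at an equal median *B4galt3* was -0.12, *Ufc1* -0.16 and *Dedd* -0.012. In the CPM table, with edgeR and with DESeq2, *Dedd* was -0.62, -0.58 and -0.62, *Tomm40l* -0.21, -0.20 and -0.22, and *Nr1i3* 0.26, 0.18 and 0.15. *Apoa2* (-0.18 in TPM) was -1.79, -1.76 and -1.84 there, with unadjusted p-values of 0.0645 in limma, 0.0856 in edgeR and 0.293 in DESeq2. These values rest on 10 reads in WT and 3 in KO and cannot be read as the level of *Apoa2*. With 1 library left out, *B4galt3* ran from -0.36 to 0.46 (below 0 without WT replicate 2 and, at -0.15, without KO replicate 1), *Tomm40l* from -0.26 to 0.68 (below 0 without WT replicate 2 and, at -0.046, without KO replicate 3) and *Usf1* from -0.61 to 0.028 (above 0 without KO replicate 3). The cause of these shifts was not tested. Of the 10 genes, 4 had no read in the CPM table and could not be fitted there, and 7 passed a mean of at least 5 TPM. Pseudocounts of 0.1 and 5, no filter on low values and no moderation of the variances turned no direction of the 10 genes. The count over all genes at an adjusted p of 0.05 (8 in limma) was 0 without moderation and 0 with any library left out. No paired analysis was possible because the labels give no litter, batch or pairing. The groups share only replicate number 3, and the labels do not say that a shared number marks a pair. TPM gives no depth, so counting error could not be set beside the low values of *Ppox*, *B4galt3* and *Tomm40l*.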

Other observations

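Differences between genotypes were also counted along chromosome 1 by distance from *Usp21*. At an unadjusted p of 0.05 in limma, 1 of 19 tested genes passed within 0.25 Mb (5.26%), 1 of 13 from 0.25 to 1 Mb (7.69%), 10 of 27 from 1 to 5 Mb (37.0%) and 6 of 50 from 5 to 10 Mb (12%). On the rest of chromosome 1, 49 of 444 genes passed (11.04%), and on other chromosomes 937 of 9027 (10.4%). In the band from 1 to 5 Mb, 6 of the 27 genes differed by 2-fold or more in TPM + 1, compared with 3.68% of all tested genes. In the band within 0.25 Mb, which holds the 10 genes, 1 of 19 did. None of the genes within 10 Mb passed an adjusted p of 0.05. Neighbouring genes are not independent of each other, and no test of the bands was made.

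The genes of chromosome Y *Ddx3y*, *Eif2s3y*, *Kdm5d* and *Uty* were above 1 TPM in all 4 libraries, which bears on CAR target genes because *Cyp2b9* and *Cyp2b13* are known to be higher in livers of females. *Cyp2b9* was at 0.691 and 0 TPM in WT and at 0 and 0.261 TPM in KO, and *Cyp2b13* was listed at 0 in every library.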
